A study of Mus musculus with 6 samples.

Results

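The integrin and laminin genes are the 36 genes, of 17551 in the deposited HTSeq count table, whose symbol follows the naming of integrin α subunits (Itga), integrin β subunits (Itgb) or laminin chains (Lama, Lamb, Lamc). They comprise 25 integrin genes and 11 laminin genes, and membership follows from the symbol alone. The choice to report on these genes was made with earlier results of these data known. Total RNA was sequenced from 3 mouse neurosphere samples with the genotype label ACVR1 G328V (group code NPAC) and 3 with the label ACVR1 WT (group code NP). All 6 were on a C57BL/6 background and were grown with EGF and FGF. Neurospheres are clusters of neural stem and progenitor cells that grow in suspension, and the ACVR1 protein is a BMP (bone morphogenetic protein) receptor kinase, in which G328V replaces a glycine by valine. The labels spell out neither group code and do not give what drives the mutant receptor, the age of the animals, or whether a culture was 1 clone or a pool. The 3 libraries of a group are labelled as biological replicates, but their animals or cultures are not named, and p-values therefore reflect only how far these libraries differ. Replicates are numbered 1, 2 and 3 in G328V and 1, 3 and 70A in WT, and values are given in that order.

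Integrins are transmembrane receptors made of 1 α and 1 β subunit, and the pairing decides which ligand is bound. Laminins are secreted trimers of an α, a β and a γ chain that form the scaffold of basement membranes, and in the developing brain they anchor the end-feet of radial glia. The β1 subunit pairs with most α subunits, and α3β1, α6β1, α7β1 and α6β4 are the main laminin receptors.

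Total gene counts ranged from 115953495 to 182626231 in the G328V libraries and from 120457925 to 191115532 in the WT libraries, and the 36 genes took 0.375% to 0.537% of counts in G328V and 0.413% to 0.684% in WT. Levels are in CPM, counts relative to a library size that was scaled by the trimmed mean of M-values (TMM). Acvr1 itself was at 244, 250 and 650 CPM in G328V, against 42.4, 100.0 and 90.7 CPM in the WT libraries, and gene counts do not tell the mutant from the wild-type transcript. The neural stem genes Sox2 and Nes were detected in each library. Sox2 spanned 145 to 237 CPM in G328V and 134 to 179 CPM in WT. Nes spanned 105 to 273 CPM in G328V and 91.2 to 963 CPM in WT. Of the 7 neural stem genes listed, only Sox9 separated the groups, with 33.2, 80.1 and 43.0 CPM in G328V, against 109, 151 and 140 CPM in WT. Vim, Pax6, Fabp7 and Msi1 overlapped. Fabp7 had 65.1, 2.64 and 6.69 CPM in G328V, against 1313, 0.182 and 0.574 CPM in WT. Msi1 had 13.2, 22.1 and 5.70 CPM in G328V, against 40.6, 0.716 and 1.22 CPM in WT. Xist ranged over 443 to 795 CPM across the G328V libraries and 0.250 to 1.18 CPM across WT, while Y-linked Ddx3y reached at most 0.0326 CPM in any G328V library and at least 17.7 CPM in all WT libraries, so sex-linked expression and genotype cannot be told apart in any comparison here. WT replicate 1 stood apart with 416 CPM of Olig2, a factor of the oligodendrocyte lineage, against at most 0.938 CPM in the G328V libraries and at most 0.144 CPM in the other WT libraries. In bulk RNA, fewer cells of a type and less RNA per cell cannot be told apart.

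No integrin or laminin gene passed the test of G328V against WT at a false discovery rate (FDR) of 0.05. Of the 34 genes with enough counts to test, edgeR's quasi-likelihood test with Benjamini-Hochberg adjustment over all 14643 genes tested called 0. It also called 0 over all genes (0%), and the smallest adjusted p of any member was 0.997. The same edgeR test did not call Xist or Ddx3y, at adjusted p of 0.254 and 0.718, though their groups did not overlap. A lack of calls here therefore does not show that the groups are alike. An unadjusted p under 0.05 was found for 5 of the 34, 14.7%, against 4.06% of all genes tested. The only one of these higher in G328V was Itga7, which encodes the α7 subunit of a laminin receptor (background for higher genes 1.88%). The 4 lower ones were Itgb2, Itgb4, Itgb7 and Itgb8 (background for lower genes 2.17%), and each of these was high in 1 or 2 of the 3 WT libraries only. The count of 5 was 1 without G328V replicate 1, 1 without G328V replicate 3 and 2 without WT replicate 3. It was 4 without G328V replicate 2. Without WT replicate 1 it was 2 higher and 5 lower, and without WT replicate 70A 3 higher and 4 lower. Itga7 was among these genes in all 6 fits with a library left out. The share of all genes in those 6 fits was 3.01% to 6.75%. Negative differences were found for 22 of the 34 and positive ones for 12. The median log2 difference was -0.61, beside -0.0039 over all genes tested. It was -0.39, -0.14 and -0.26 without WT replicates 1, 3 and 70A, and -0.43, -0.59 and -0.74 without G328V replicates 1, 2 and 3. The median size of the difference, whatever its sign, was 1.08 on the log2 scale for the 34 genes and 0.41 for all genes.

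DESeq2, run as an alternative, called 2 members at an FDR of 0.05, Itgb2 and Itgb8, both lower in G328V (background for lower genes 0.478%), and none higher (background 0.569%). Its count was 0 without G328V replicate 1 or 3, 1 without G328V replicate 2 or WT replicate 3, 3 without WT replicate 1 and 4 without WT replicate 70A. Over all genes DESeq2 called 173 with the 6 libraries and 272 to 727 with a library left out, the 727 without WT replicate 1. The limma-voom test called 0 members, with 3 at an unadjusted p under 0.05, namely Itga7, Itga8 and Itga11, all higher in G328V. With all 6 libraries DESeq2 gave no p-value for Itgb7, adjusted or not, so it could not call that gene.

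**Figure D1:**
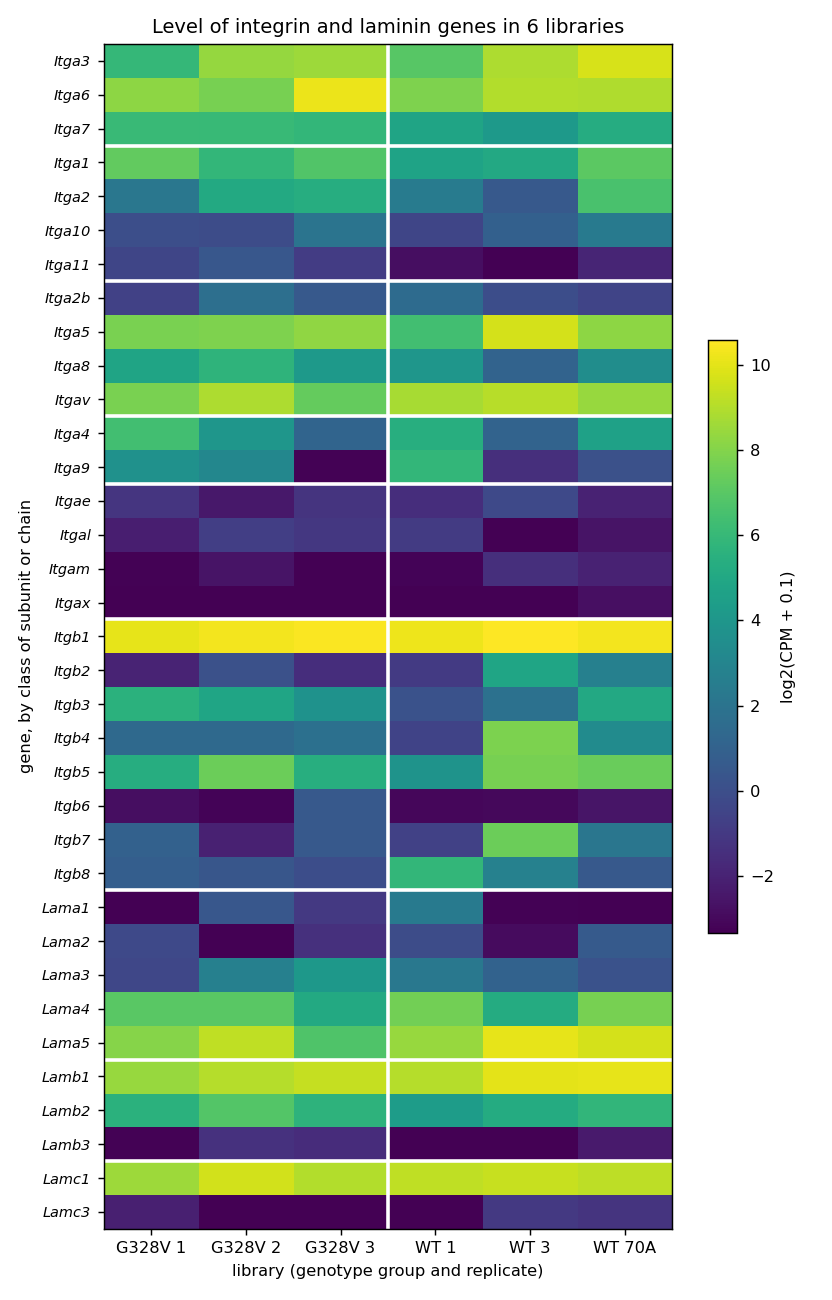
Level of all but 1 of the 36 genes (rows, by class) in the 3 G328V and 3 WT libraries (columns), coloured by log2 of CPM plus 0.1. Itgb1 is high in each library, whereas Itgb4, Itgb7 and Itgb2 stand out in WT replicate 3 and Itgb8 in WT replicate 1.

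Levels of single members varied widely between libraries of the same group. Among the 27 tested genes with counts in each of the 6 libraries, the highest library exceeded the lowest by a median of 10.3-fold, and by more than 10-fold in 14 genes. The other 7 tested genes had 0 counts in at least 1 library, and 10 tested genes stayed under 10 CPM everywhere. WT replicate 3 held the highest level of 12 of the 34 genes and G328V replicate 1 the lowest of 9.

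Itgb1, the shared β1 subunit, was the steadiest member. It was at 1065, 1311 and 1439 CPM in G328V, against 1179, 1526 and 1303 CPM in the WT libraries. The groups overlapped, and the highest library exceeded the lowest by 1.43-fold. The log2 difference was -0.071 ± 0.24 (SE), and its sign turned under scaling by total counts. Per length of exon, Itgb1 made up 93.0%, 85.7% and 95.9% of the summed β subunit level in G328V, against 96.4%, 69.4% and 85.0% in the WT libraries.

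Among the α subunits that bind laminin, Itga7 separated the groups. It was at 68.2, 66.9 and 58.9 CPM in G328V, against 27.7, 17.6 and 39.2 CPM in the WT libraries. The 3 G328V libraries lay close together and above all 3 WT libraries, with means of 64.7 ± 5.06 CPM in G328V and 28.2 ± 10.8 CPM in WT (SD, n = 3 each). The log2 difference was 1.20 ± 0.35 (SE), a 2.30-fold higher level in G328V (edgeR, adjusted p = 0.997). With each library left out it lay between 0.93 and 1.51. Itga7 lies on chromosome 10 from 128933818 to 128958282 on the plus strand (GRCm38), and its exons overlap those of Mettl7b on the other strand by a few bases.

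Itga3 and Itga6, whose mean levels per length were above that of Itga7, did not separate the groups. In G328V replicate 1 alone, Itga7 exceeded Itga3 per length, at 16.5 against 11.8 CPM per kb. Itga3 was at 62.0, 332 and 374 CPM in G328V, against 126, 459.6 and 837 CPM in the WT libraries. G328V replicate 1 was the lowest library and WT replicate 70A the highest, and the log2 difference was -0.89 ± 0.87 (SE). It was -0.21 without WT replicate 70A, -0.43 without G328V replicate 1 and -1.36 without WT replicate 1. Itga6 was at 298, 209 and 1159 CPM in G328V, against 241, 499.7 and 484 CPM in the WT replicates. G328V replicate 3 stood above the other 5 libraries, the log2 difference was 0.45 ± 0.70 (SE), and it was -0.69 without that library and between 0.17 and 0.84 without each of the others. Per length, the ratio of Itga6 to Itga3 was 5.79, 0.760 and 3.74 in the G328V libraries and 2.29, 1.31 and 0.696 in WT, so the leading laminin-binding subunit was Itga3 in G328V replicate 2 and WT replicate 70A and Itga6 in the other 4.

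The groups also did not overlap for Itga8 and Itga11, which with Itga7 makes 3 of 34 members against 9.70% of all genes. All were higher in G328V, so 3 of 34 tested members lay higher without overlap (background 5.25%) and 0 lower (background 4.45%). Itga8, whose product pairs with β1 to bind RGD ligands such as nephronectin, was at 27.9, 52.6 and 18.6 CPM in G328V, against 15.8, 2.06 and 11.0 CPM in the WT libraries. The lowest G328V library lay just above WT replicate 1, and the log2 difference was 1.78 ± 0.80 (SE). With each library left out the difference lay between 1.27 and 2.30. Its exons overlap an antisense transcript, and no source used here says whether strand was counted. Itga11, a collagen-binding subunit, was close to the limit of detection, with 109, 152 and 85 counts in G328V, against 5, 0 and 30 counts in the WT libraries. These counts are 0.635, 1.26 and 0.462 CPM in G328V and at most 0.172 CPM in WT, and the log2 difference was 3.45 ± 1.84 (SE). In the deposited Cufflinks table the G328V libraries held 61, 117 and 50 fragments of Itga11 and the WT libraries 29, 0 and 41, so the groups did not overlap there, but the log2 difference was 1.76 in place of 3.45. With each library left out of the HTSeq fit it lay between 2.84 and 5.24, the highest without WT replicate 70A.

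**Figure D2:**
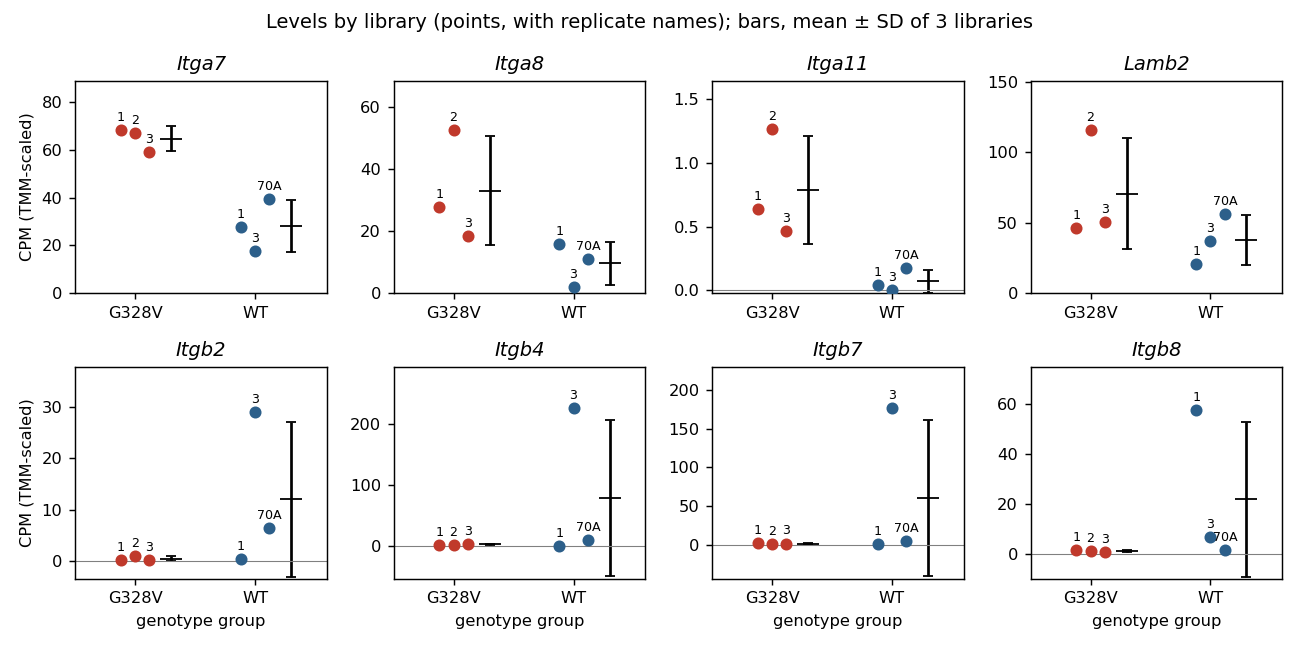
CPM of 8 genes in each library (points, named by replicate) with the mean and SD of 3 libraries (bars), G328V left and WT right of each panel, each on its own linear axis. For Itga7, Itga8 and Itga11 the lowest G328V point lies above the highest WT point, while the WT means of Itgb2, Itgb4 and Itgb7 follow replicate 3 and that of Itgb8 follows replicate 1.

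The 3 β subunits Itgb4, Itgb7 and Itgb2 were high in WT replicate 3. Itgb4, which pairs with α6 in the hemidesmosomes of epithelia and binds laminin, was at 2.54, 2.59 and 3.35 CPM in G328V, against 0.593, 227 and 10.4 CPM in the WT libraries. The G328V libraries lay between WT replicate 1 and WT replicate 70A, so the groups overlapped. The log2 difference was -4.81 ± 1.92 (SE), and without WT replicate 3 it was -0.98. Itgb7, a leukocyte subunit that pairs with α4 or αE, was at 1.90, 0.141 and 1.37 CPM in G328V, against 0.544, 177 and 4.21 CPM in WT, and WT replicate 3 exceeded the next library by 42.1-fold. Its log2 difference was -5.74 ± 2.29 (SE), and -1.08 without WT replicate 3. Itgb2, the β subunit of the leukocyte integrins, was at 0.157, 0.997 and 0.256 CPM in G328V, against 0.423, 29.1 and 6.45 CPM in WT. WT replicate 1 lay below G328V replicate 2, and the log2 difference was -4.67 ± 1.65 (SE), or -2.91 without WT replicate 3. In GRCm38, Itgb4 lies on chromosome 11 from 115974709 to 116008412 and Itgb2 on chromosome 10 from 77530252 to 77565708, both on the plus strand, and Itgb7 on chromosome 15 from 102215995 to 102231944 on the minus strand.

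The partners and markers that go with these β subunits were mixed. The leukocyte α genes Itgae, Itgal, Itgam and Itgax were at most 0.498 CPM in G328V and at most 0.739 CPM in WT, and Itgae and Itgam were highest in WT replicate 3, at 0.739 and 0.261 CPM. Itga4, which encodes the α4 partner of β7, had 83.5, 15.8 and 2.09 CPM in G328V, against 42.3, 2.05 and 25.0 CPM in the WT libraries, so it was low where Itgb7 was high. Exons of Itga4 overlap those of Cerkl on the other strand. Of 6 leukocyte markers 4 were in the table, their summed level was 20.8 to 63.4 CPM in G328V and 1.79 to 81.0 CPM in WT, and Ptprc, the pan-leukocyte CD45 gene, had 0 counts in WT replicate 3. The sum was highest in WT replicate 3, where most of it was Cd68, at 80.0 CPM. Of 5 epithelial markers 4 were in the table, summing to 0.216 to 101 CPM in G328V and 0.585 to 224 CPM in WT. WT replicate 3 had the highest sum, 214 CPM of it Krt18, and also the highest Krt8, at 2.78 CPM. Epcam and Cdh1 were highest in WT replicate 70A, at 3.68 and 17.5 CPM, against 0.841 and 5.92 CPM in WT replicate 3. The part of these cell types in the Itgb2, Itgb4 and Itgb7 values was not tested. Exons of Itgb4 overlap an antisense transcript, so its reads may be shared.

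Itgb8, whose product pairs with αv and activates latent TGF-β, was at 1.67, 1.22 and 0.859 CPM in G328V, against 57.8, 6.89 and 1.39 CPM in the WT libraries. WT replicate 70A lay within the range of the G328V libraries. The gene lies on chromosome 12 from 119158022 to 119238802 on the minus strand (GRCm38). The log2 difference was -4.14 ± 1.39 (SE), and -1.74 without WT replicate 1. Itga9, which binds tenascin-C and other ligands with β1, was also highest there, with 13.0, 8.51 and 0.00544 CPM in G328V, against 58.3, 0.261 and 0.988 CPM in the WT libraries. Its log2 difference was -1.47 with all libraries and 3.50 without WT replicate 1. The markers of oligodendrocyte precursors, 5 of 5 in the table, summed to 13.6 to 231 CPM in G328V, against 1044 CPM in WT replicate 1 and 105 CPM or less in WT replicates 3 and 70A. Of the 1044 CPM, 615 were Olig1 and 416 Olig2, while Pdgfra, at 9.65 CPM, was lower there than in the other 5 libraries, Cspg4 was at 3.27 CPM and Sox10 at 0.0569 CPM. The part of these cells in the Itgb8 and Itga9 values was not tested.

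The αv subunit and its other β partners did not pass the test. Itgav, which binds RGD ligands, was at 221, 473 and 159 CPM in G328V, against 435, 544 and 347 CPM in the WT libraries. G328V replicate 2 lay within the WT range, and the log2 difference was -0.64 ± 0.45 (SE), or -1.22 without that library and -0.35 without G328V replicate 3. Itgb5 was at 39.6, 174 and 42.2 CPM in G328V, against 14.2, 215 and 167 CPM in WT, with a log2 difference of -0.63 ± 1.03 (SE). This was -1.69 without G328V replicate 2, -1.19 without WT replicate 1 and -0.12 without WT replicate 3, and between -0.45 and -0.29 without each of the others. Itgb3, the vitronectin receptor subunit, was at 46.1, 29.0 and 13.3 CPM in G328V, against 1.05, 3.59 and 33.3 CPM in WT. Only WT replicate 70A reached the G328V range, and the log2 difference of 1.22 ± 1.23 (SE) was 3.66 without it and between 0.65 and 1.57 without each of the others. Itga5, the fibronectin receptor subunit, was at 218, 241 and 309 CPM in G328V, against 81.3, 836 and 298 CPM in WT. WT replicates 1 and 3 lay on either side of the G328V range, and the log2 difference of -0.66 ± 0.77 (SE) was 0.41 without WT replicate 3 and -1.16 without WT replicate 1.

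The collagen-binding α1 subunit gene Itga1 was at 151, 58.4 and 110.2 CPM in G328V, against 26.5, 32.9 and 135 CPM in the WT libraries. Only WT replicate 70A reached the G328V range, and the log2 difference was 0.71 ± 0.72 (SE), or 1.84 without that library and between 0.32 and 1.00 without each of the others. Its neighbour Itga2 was highest in the same library, at 95.5 CPM, against 4.45 to 41.0 CPM in G328V and 1.39 and 5.40 CPM in the other WT libraries. Itga10 and Itga2b stayed between 0.536 and 4.01 CPM in G328V and between 0.632 and 5.06 CPM in WT. Itgb6 and Itgax were too low to test.

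**Figure D3:**
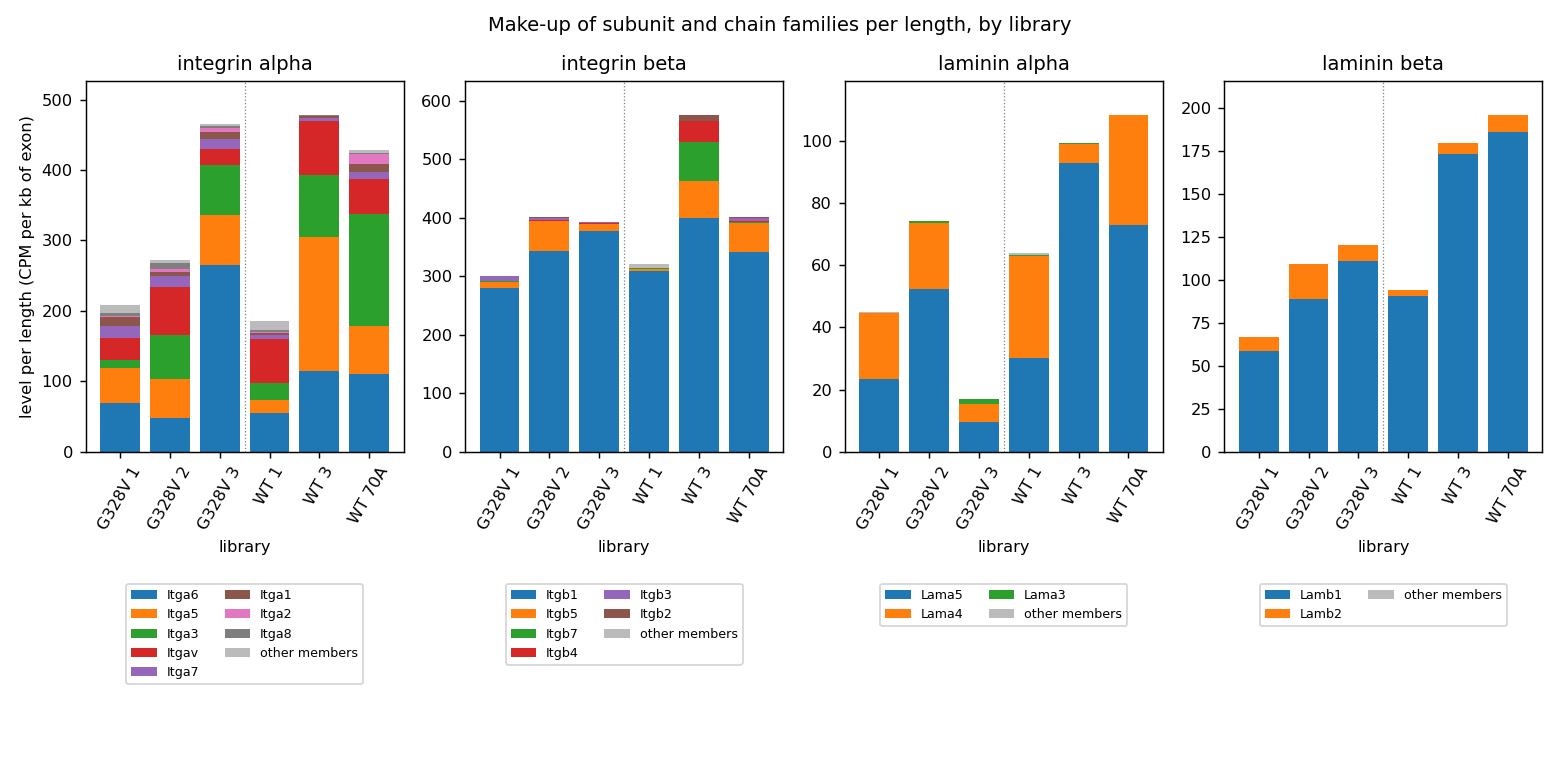
Level per length, in CPM per kb of exon, of the α subunits, β subunits, laminin α chains and laminin β chains (stacked, leading members coloured), G328V libraries left and WT libraries right of the dotted line. Itgb1 makes up most of the β level in each library, and Lamb2 takes 7.43% to 18.9% of the laminin β level in G328V and 3.64% to 5.08% in WT. The Lamb2 share follows the ratio of Lamb1 to Lamb2, which was chosen after the values were seen. The CPM of Lamb2 itself overlapped between groups.

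The laminin chains detected at high levels were Lama5, Lama4, Lamb1 and Lamc1. Per length, Lama5 and Lama4 together made up most of the laminin α level in each library. Lama5 took 52.5%, 70.5% and 56.1% of it in G328V, against 47.1%, 93.6% and 67.2% in the WT libraries. Lama5 encodes the α5 chain of the laminins found in most adult basement membranes. It was at 268, 597 and 108 CPM in G328V, against 344, 1059.6 and 832 CPM in WT. G328V replicate 2 lay above WT replicate 1, so the groups overlapped, and the log2 difference was -1.20 ± 0.70 (SE). It was -1.99 without G328V replicate 2 and -0.79 without G328V replicate 3. Lama4, a chain typical of vessel walls, was at 128, 128 and 35.0 CPM in G328V, against 198, 37.1 and 214 CPM in WT, and its log2 difference was -0.63 ± 0.77 (SE). This was -1.10 without WT replicate 3, and -0.23, -0.29 and -0.39 without G328V replicate 3, WT replicate 70A and WT replicate 1.

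Lamb1, the β1 chain, was at 342, 517 and 649 CPM in G328V, against 528, 1010.1 and 1087 CPM in the WT libraries. WT replicate 1 fell within the G328V range, and the other WT libraries lay above it. The log2 difference was -0.80 ± 0.39 (SE), or -1.08 without WT replicate 1. Lamb2, the β2 chain of synaptic and vascular laminins, was at 46.1, 116 and 50.2 CPM in G328V, against 20.4, 36.8 and 56.0 CPM in WT. WT replicate 70A lay within the G328V range, and the log2 difference was 0.91 ± 0.53 (SE), or 0.35 without G328V replicate 2 and 0.58 without WT replicate 1. Per length, the ratio of Lamb1 to Lamb2 within a library was 7.16, 4.30 and 12.5 in G328V, against 24.9, 26.5 and 18.7 in WT, so the groups did not overlap in this ratio. The ratio was 1 of 6 chosen after the values were seen and is given with no test. Lamc1, the γ1 chain of most laminins, was at 367, 787 and 505 CPM in G328V, against 616, 669 and 583 CPM in WT, with a log2 difference of -0.17 ± 0.32 (SE) and a range of -0.52 to 0.053 with each library left out.

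The other laminin chains described here were scarce. Lama3, an α chain of epithelial basement membranes, spanned 0.676 to 16.8 CPM in G328V against 1.05 to 4.66 CPM in WT, and Lamb3 was at most 0.291 CPM in G328V and at most 0.103 CPM in WT. Lama1, Lama2 and Lamc3 did not exceed 1.29 CPM in G328V or 5.20 CPM in WT, and the 5.20 CPM of Lama1 was in WT replicate 1. Across the 11 laminin genes, 8 differences were negative and 3 positive, and none had an unadjusted p under 0.05.

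**Figure D4:**
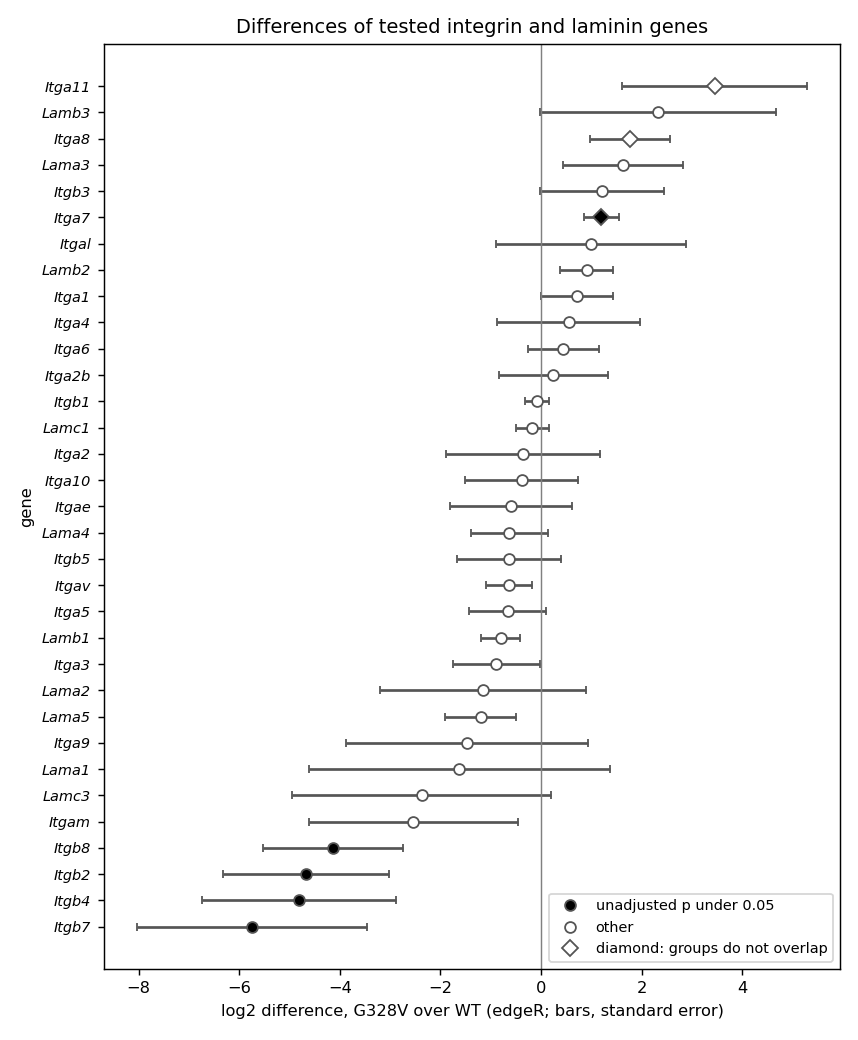
Log2 difference of G328V over WT by edgeR for all but 1 of the 34 tested genes (points), with its standard error (bars). Filled points have an unadjusted p under 0.05, and diamonds mark the 3 genes whose groups did not overlap.

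The promoter search covered 23 of the 36 genes (RefSeq, GRCm38.p6), which may not be all those with a sequence. ACVR1 signals to SMAD1 and SMAD5, which bind GC-rich elements, so the 250 bases before each start were searched on both strands for GGCGCC and for the palindromic SMAD element GTCTAGAC. The upstream sequences are shown for Itga8 and Itga11, the members higher without overlap for which one was given, and for Lama5 and Lamb1, major laminin chains that hold GGCGCC, in capitals. Each runs 5′ to 3′ in the direction of the gene.
Itga8 (chr2:12301945-12302194, minus strand): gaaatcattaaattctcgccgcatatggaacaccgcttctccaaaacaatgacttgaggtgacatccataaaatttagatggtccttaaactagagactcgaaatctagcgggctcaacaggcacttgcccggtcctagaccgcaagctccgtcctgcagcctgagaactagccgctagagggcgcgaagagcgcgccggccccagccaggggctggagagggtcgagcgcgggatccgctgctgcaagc
Itga11 (chr9:62677605-62677854, plus strand): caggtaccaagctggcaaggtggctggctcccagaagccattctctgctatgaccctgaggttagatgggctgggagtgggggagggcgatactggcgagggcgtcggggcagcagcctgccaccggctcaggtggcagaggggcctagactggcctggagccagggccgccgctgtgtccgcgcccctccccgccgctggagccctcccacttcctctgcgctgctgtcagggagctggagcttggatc
Lama5 (chr2:180225860-180226109, minus strand): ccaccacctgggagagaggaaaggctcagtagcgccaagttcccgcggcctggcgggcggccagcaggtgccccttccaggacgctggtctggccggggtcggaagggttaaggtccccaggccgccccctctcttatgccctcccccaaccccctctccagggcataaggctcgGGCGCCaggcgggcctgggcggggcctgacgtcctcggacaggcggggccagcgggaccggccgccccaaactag
Lamb1 (chr12:31265043-31265292, plus strand): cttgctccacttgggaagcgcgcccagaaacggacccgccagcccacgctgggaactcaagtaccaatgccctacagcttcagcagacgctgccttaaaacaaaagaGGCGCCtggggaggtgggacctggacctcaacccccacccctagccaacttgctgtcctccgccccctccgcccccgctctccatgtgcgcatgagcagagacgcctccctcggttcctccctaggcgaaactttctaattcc
GGCGCC was found upstream of 3 of the 23 genes, Itgb1, Lama5 and Lamb1, and in 9.59% of 32851 promoters of the same length. The units differ, since the 23 genes had 26 promoters and a match in any of a gene's promoters counted. Median GC content was 58% for the member promoters and 52.4% for all promoters. GTCTAGAC was found in none of the 23 and in 0.167% of all promoters. A match describes these letters only, and neither Itga8 nor Itga11 holds either motif in this window.

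Ligands, basement membrane partners and adhesion adaptors were read out of the same fit. The list held 36 genes, of which 34 were in the table and 32 were tested, and both edgeR and DESeq2 called 0 of them at an FDR of 0.05. By edgeR, an unadjusted p under 0.05 was found for 4, all lower in G328V, 12.5% against 4.06% of all genes. The count was 1 without G328V replicate 1 or 3, 2 without G328V replicate 2 or WT replicate 70A, of which 1 was higher and 1 lower in each case, and 6 without WT replicate 1.

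Among the 4 were 3 of the 18 tested activators and adaptors, and in each of these the groups did not overlap (background for lower genes 4.45%). Pxn, the scaffold paxillin, was at 107, 103 and 92.2 CPM in G328V, against 116, 275 and 296 CPM in the WT libraries. Its G328V libraries lay close together just under WT replicate 1, and the log2 difference was -1.19 ± 0.38 (SE). Tns1, the adaptor tensin 1, was at 48.7, 49.4 and 11.5 CPM in G328V, against 88.3, 251 and 192 CPM in WT, with a log2 difference of -2.28 ± 0.67 (SE). Tln1, the activator talin 1, was at 234, 194 and 255 CPM in G328V, against 259.9, 384 and 508 CPM in WT, with a log2 difference of -0.75 ± 0.31 (SE).

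The other gene with an unadjusted p under 0.05 was Tnc, the matrix ligand tenascin-C, at 91.8, 212 and 28.7 CPM in G328V, against 4056, 61.3 and 887 CPM in the WT libraries. WT replicate 3 lay within the G328V range, and the log2 difference was -3.91 ± 1.51 (SE). Spp1, the RGD ligand osteopontin, had the highest mean level of the list, at 106, 1498 and 1071 CPM in G328V, against 109, 1139 and 4604 CPM in WT. The groups overlapped, and the log2 difference was -1.13 ± 1.37 (SE). Vcl, the adaptor vinculin, was at 311, 453 and 366 CPM in G328V, against 231, 419 and 649 CPM in WT, with a log2 difference of -0.20 ± 0.41 (SE). Of the 6 basement membrane partners and other laminin receptors, among them nidogens, perlecan and dystroglycan, 4 had positive differences and none an unadjusted p under 0.05.

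**Figure D5:**
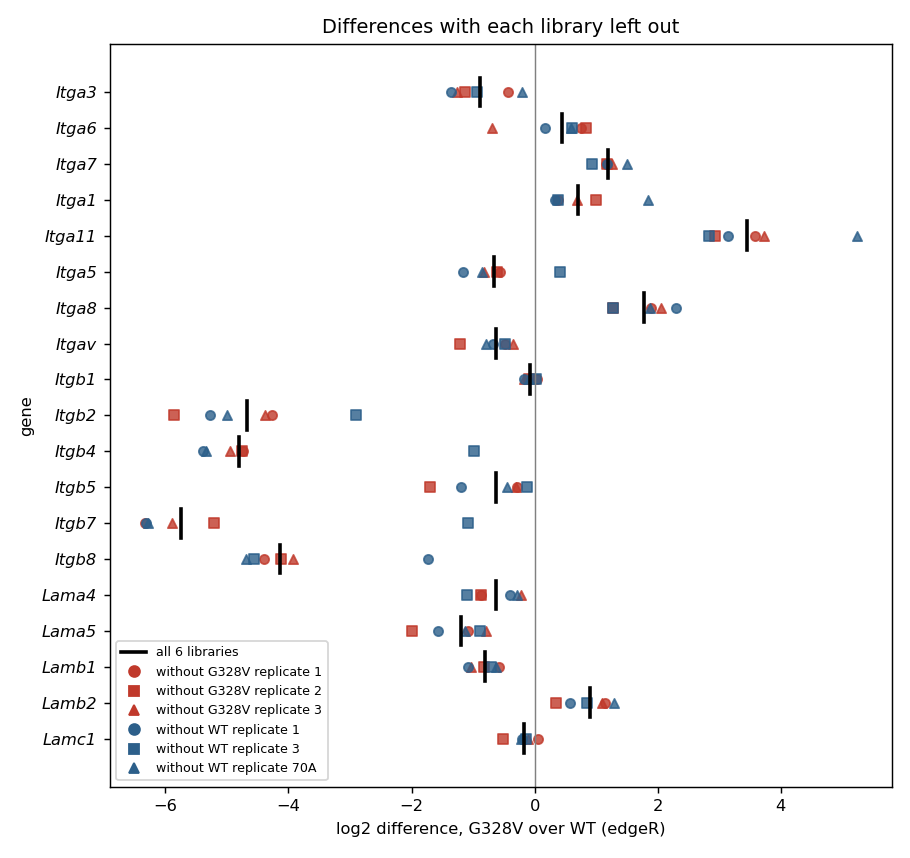
Log2 difference of G328V over WT by edgeR for 19 members (rows) with all 6 libraries (black bar) and with each library left out (symbols, red for a G328V and blue for a WT library). Itga7, Itga8 and Itga11 stay positive throughout, while Itgb4, Itgb7 and Itgb2 move towards 0 without WT replicate 3 and Itgb8 without WT replicate 1.

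Counts per Cufflinks fragment showed where the 2 deposited tables differ for a member. Its median was 1.95 to 1.96 across the 8924 genes that had 500 or more counts in each library. Itga7 had 1.96 to 1.98 in G328V and 1.82 to 1.95 in WT, lower in each WT library. With the Cufflinks estimated counts the log2 difference of Itga7 was 1.13, beside 1.20 with the HTSeq counts. Itgb1 had 1.97 to 1.98 in both groups. Itga4 had 1.97, 1.82 and 0.919 in G328V, against 1.94, 1.5 and 1.84 in WT, and the ratio was lowest in libraries where its level was low. Itgb4 had 1.64, 1.18 and 1.62 in G328V, against 1.83, 1.96 and 1.77 in WT, lower in each G328V library. Itgae, which has the gene Haspin nested in it on the other strand, had 0.109 to 1.37 in G328V and 0.200 to 1.83 in WT. Another integrin gene, Itgad, was listed only in the Cufflinks table, with 0 fragments in all 6 libraries.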

How the data were processed

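The authors deposited 2 tables of whole-series values: HTSeq counts per gene symbol, which are raw whole numbers, and Cufflinks estimated counts per gene, which are not normalized. Per the submitters' processing notes, FastQC 0.11.3, TopHat2 2.0.13, Bowtie2 2.2.1 and the build mm10 were used. The sources used here state neither the annotation nor whether strand was used in counting.

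The HTSeq counts were tested with edgeR 4.0.16 in R 4.3.3 (TMM scaling, filterByExpr with a minimum count of 10, legacy quasi-likelihood fit with robust dispersion, G328V over WT), with Benjamini-Hochberg adjustment over all tested genes. Standard errors were derived from the F statistic. Alternatives were DESeq2 1.42.0, limma 3.58.1 (voom), the edgeR 4 fit, other scalings and filters, the Cufflinks estimated counts rounded to whole numbers, a replicate block and each library left out. Fitting DESeq2 with each library left out was added after seeing the data. The scripts were run on simulated counts. Recovery of changed genes was required there only at a dispersion below that of these data.

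Levels per length are CPM per kb of merged exons of GENCODE M21 (GRCm38), which may differ from the annotation the authors used. Overlapping exons were read from the same annotation.

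Values of each library are given for members with an unadjusted edgeR p under 0.05, groups that do not overlap, a DESeq2 FDR under 0.05, a mean of at least 50 CPM, or a library of at least 10 CPM that exceeds the next by at least 5-fold. Of the partner genes, those with such a p or FDR and the 3 with the highest mean are named. Itga2, Itga4, Itga9 and Itgb3 fall outside this rule and were chosen after their values were seen. Values of 1 member are not reported here, in text or plots, but it is counted among the members. The members and lists were chosen with earlier results of these data known. The spread between libraries limits the comparisons, and counting error, which was not computed, adds to it for members with few counts.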

Additional observations from a re-analysis of the deposited data

How the results depend on the processing

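Values of 19 members were recomputed under each alternative. With all 6 libraries, 166 of 169 kept their direction and side of the threshold, and with a library left out 109 of 114 did. Since edgeR called none, no call could be lost. DESeq2 called 2 members in place of 0, Itgb2 and Itgb8. That DESeq2 count was 0 to 4 with a library left out, while its count over all genes was 173 with the 6 libraries and 272 to 727 with a library left out. The 5 members with an unadjusted p under 0.05 compare with 3 by limma-voom (3.94% of all genes), of which Itga7 was among the 5 and Itga8 and Itga11 were not, and with 1 to 7 with a library left out (3.01% to 6.75% of all genes). The 3 members whose groups did not overlap were 4 to 13 with a library left out, which by construction cannot be fewer than 3, while the share of all genes was 9.70% with the 6 libraries and 16.8% to 23.4% in those fits. The 4 partner genes with an unadjusted p under 0.05 were all lower in G328V. The count was 2 by limma-voom, both lower, 1 to 6 with a library left out, and 2 with the replicate block, both higher in G328V and so none of the 4. The median log2 difference of members, -0.61, was -0.30 by limma-voom, -0.33 with the Cufflinks estimated counts and -0.74 to -0.14 with a library left out. Scaling by total counts moved the median of all genes to 0.12 and gave Itgb1 a difference of 0.049, beside -0.071. With a library left out, signs also turned for Itgb1 (-0.17 to 0.042, positive without G328V replicate 1 or WT replicate 3), Lamc1 (-0.52 to 0.053, positive without G328V replicate 1), Itga6 (-0.69 to 0.84, negative without G328V replicate 3) and Itga5 (-1.16 to 0.41, positive without WT replicate 3). The causes were not tested. The groups share only the replicate numbers 1 and 3, and nothing in the labels ties their libraries. Between the libraries of each number, deviations from the group means had correlations of 0.18 and 0.23. Correlations of other pairs were not computed, so these values cannot show whether the libraries were matched. With the replicate block, 4 members had an unadjusted p under 0.05 (4.16% of all genes), Itga1 and Itga7 higher and Itgav and Itgb8 lower, the median was -0.36 and 0 were called. Itgb2, Itgb4 and Itgb7 were not among them, and Itgb4 was at -2.02 and Itgb7 at -2.64. Members under 1 CPM rest on few counts and limit what can be read from their differences.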
